A study of Mus musculus with 22 samples.

Results

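The genes described here encode the signalling chains of the T cell receptor complex and its coreceptors: Cd3d, Cd3e, Cd3g and Cd247 (the CD3 δ, ε, γ and ζ chains), Cd8a and Cd8b1 (CD8 α and β), Cd4, Cd2, Cd5 and Lck. They were taken by gene symbol from 2 tables of normalised read counts, and all 10 were found in both, out of 24063 genes in the first table and 24019 in the second. The series asked whether β-catenin activation in liver cancer goes with escape from the immune system. Gene expression was measured by RNA sequencing of total RNA from 22 untreated liver tumours of C57BL/6 mice, in which plasmids had been delivered by hydrodynamic tail-vein injection, a method that brings DNA into hepatocytes. Ages and the number of animals are not given in the sources used here, so p-values measure the spread between tumour samples.

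Every tumour carried MYC, controls included, so no group shows what either second driver does without it. The first table (set 1) held 3 tumours labelled myc.lucOS.p53, 3 labelled myc.luc.p53, 2 labelled myc.lucOS.bcat and 4 labelled myc.luc.bcat. The second (set 2) held 4 tumours labelled myc.lucOS.p53, with sgp53 (a guide against p53) in their names, 3 labelled MYC.luc.CTNNB1 and 3 labelled MYC.lucOS.CTNNB1. The names luc p53, luc β-catenin, lucOS p53 and lucOS β-catenin are used for them below. Luc stands for luciferase, and lucOS for luciferase joined to model antigens that T cells recognise. Set 2 has no luc p53 group. Its p53 tumours 1 to 3 have names that begin with AL, whereas names that begin with JAX belong to p53 tumour 4 and to all 6 β-catenin tumours, so in set 2 the driver and the name series largely coincide. Tumour numbers only name tumours within a group.

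A T cell receptor recognises a peptide on an MHC molecule but cannot signal by itself, so the CD3 chains and the ζ chain carry the signal into the cell. The kinase Lck starts this by phosphorylating their tails, and it is brought there by CD8, which binds MHC class I on the target cell, or by CD4, which binds MHC class II. Tumour-bearing liver contains hepatocytes, macrophages and lymphocytes side by side, so these transcripts are a small share of its RNA, and NK cells share some of them, such as Cd247, Cd2 and Lck.

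The 3 small CD3 genes lie together on mouse chromosome 9 (GRCm38, GENCODE vM21). Cd3g (chr9:44969572-44980431, minus strand) and Cd3d (chr9:44981786-44987339, plus strand) are read away from each other from starts 1355 bases apart, and Cd3e (chr9:44998740-45009627, minus strand) lies on the far side of Cd3d. The 250 bases before their starts in the RefSeq promoter table are shown. For Cd3e that start differs from the one above, and its window reaches into the gene (45009612 against 45009627). The window before the downstream start of Lck, the member with the largest difference in set 2, is shown as well. Sequences are from the RefSeq promoter table (GRCm38.p6), which gave windows for 7 of the 10 genes, and run 5′ to 3′ along the gene. Capitals mark matches on either strand to 4 short motifs: TGTGGT (RUNX), GGAAGT (ETS), CAGNTG (E-box) and CTTTGA (TCF/LEF, the partners of β-catenin).
Cd3g, chr9:44980432-44980681, minus strand: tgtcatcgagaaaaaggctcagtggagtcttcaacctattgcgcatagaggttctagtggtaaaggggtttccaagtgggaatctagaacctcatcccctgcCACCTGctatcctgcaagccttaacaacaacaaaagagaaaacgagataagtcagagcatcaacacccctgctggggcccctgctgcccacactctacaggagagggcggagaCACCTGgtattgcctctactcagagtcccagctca
Cd3d, chr9:44981536-44981785, plus strand: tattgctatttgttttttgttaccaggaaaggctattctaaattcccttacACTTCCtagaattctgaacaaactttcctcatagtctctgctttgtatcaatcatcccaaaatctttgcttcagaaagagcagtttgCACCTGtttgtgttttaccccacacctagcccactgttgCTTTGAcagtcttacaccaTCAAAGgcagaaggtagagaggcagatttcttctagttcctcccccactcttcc
Cd3e, chr9:45009612-45009861, minus strand: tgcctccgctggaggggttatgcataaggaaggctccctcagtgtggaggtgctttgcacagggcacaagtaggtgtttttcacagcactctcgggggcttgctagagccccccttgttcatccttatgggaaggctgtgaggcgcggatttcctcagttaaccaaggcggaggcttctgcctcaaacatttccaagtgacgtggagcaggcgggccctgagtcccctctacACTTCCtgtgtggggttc
Lck downstream start, chr4:129558373-129558622, minus strand: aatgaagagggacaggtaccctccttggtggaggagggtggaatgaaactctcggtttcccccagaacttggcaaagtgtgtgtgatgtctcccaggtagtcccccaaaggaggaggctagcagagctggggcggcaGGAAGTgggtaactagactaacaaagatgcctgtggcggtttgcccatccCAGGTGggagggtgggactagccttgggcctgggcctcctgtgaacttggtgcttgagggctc
The Cd3d window held 1 ETS, 1 E-box and 2 TCF/LEF matches, and that of Cd3g 2 E-box matches. That of Cd3e held 1 ETS match, and that of the downstream Lck start 1 ETS and 1 E-box match. Of the windows not shown, that of Cd247 held 1 ETS and 1 E-box match and that of Cd5 1 ETS and 2 E-box matches. The window before the upstream start of Lck held 1 RUNX and 1 ETS match, and that of Cd8a none of the motifs. Of all 32851 windows of the same length, 13.8% held the TCF/LEF letters, 19.7% the ETS, 44.8% the E-box and 14.0% the RUNX letters. These are matches of letters, with no measurement of binding.

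Per tumour, 33.7 M to 54.9 M reads fell on genes in set 1 and 33.6 M to 50.1 M in set 2. The p53 label was checked on Trp53, the gene of p53, which had 1423 to 2280 normalised counts in the p53 tumours and 3296 to 4994 in the β-catenin tumours of set 1, and 1345 to 2223 against 2631 to 4405 in set 2, without overlap. Ctnnb1, the gene of β-catenin, was not higher in the β-catenin tumours (15489 to 22465 against 22214 to 29241 in p53 tumours of set 1, and 24223 to 25938 against 23510 to 35645 in set 2), and neither Ctnnb1 nor Myc was called in a driver comparison (limma, lowest adjusted p = 0.101), so the level of Ctnnb1 gave no check of that label. Hepatocyte transcripts (8 genes such as Alb) had the highest sum of all the marker lists in every tumour, at 312381 or more. No gene of the marker lists for other cell types was at 0 throughout a group. By contrast the 9 members other than Cd247 rested on 0 to 271 reads per tumour in set 1 and 1 to 436 in set 2, so counting error is large for the lower of them, and such errors cover counting only. A value of 0 was met only for Cd3d in luc β-catenin tumour 1 and Cd2 in lucOS β-catenin tumour 2 of set 1, which allows values of up to 3.40 and 3.74 there (3 reads).

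In set 2, T cell receptor and coreceptor genes were lower in lucOS β-catenin than in lucOS p53 tumours. Of the 10, 9 were called lower (limma on log2 of the value plus 1, Benjamini-Hochberg over all genes tested, adjusted p under 0.05), and Cd4 was not. Of all 15625 genes tested, 17% were called and 10.9% were called lower. All 10 members had every lucOS β-catenin tumour below every p53 tumour, as did 22.5% of all genes. Their median log2 difference was -2.35, against -0.16 over all genes. With TMM rescaling the median over all genes was -0.01 and the split of called genes moved from 1706 lower and 950 higher to 1055 and 1296, while 9 members were still called lower. Fold changes are on the scale of the value plus 1, which understates the change of the lowest genes. In bulk tumours, fewer T cells and less of these RNAs per T cell cannot be told apart.

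**Figure D1:**
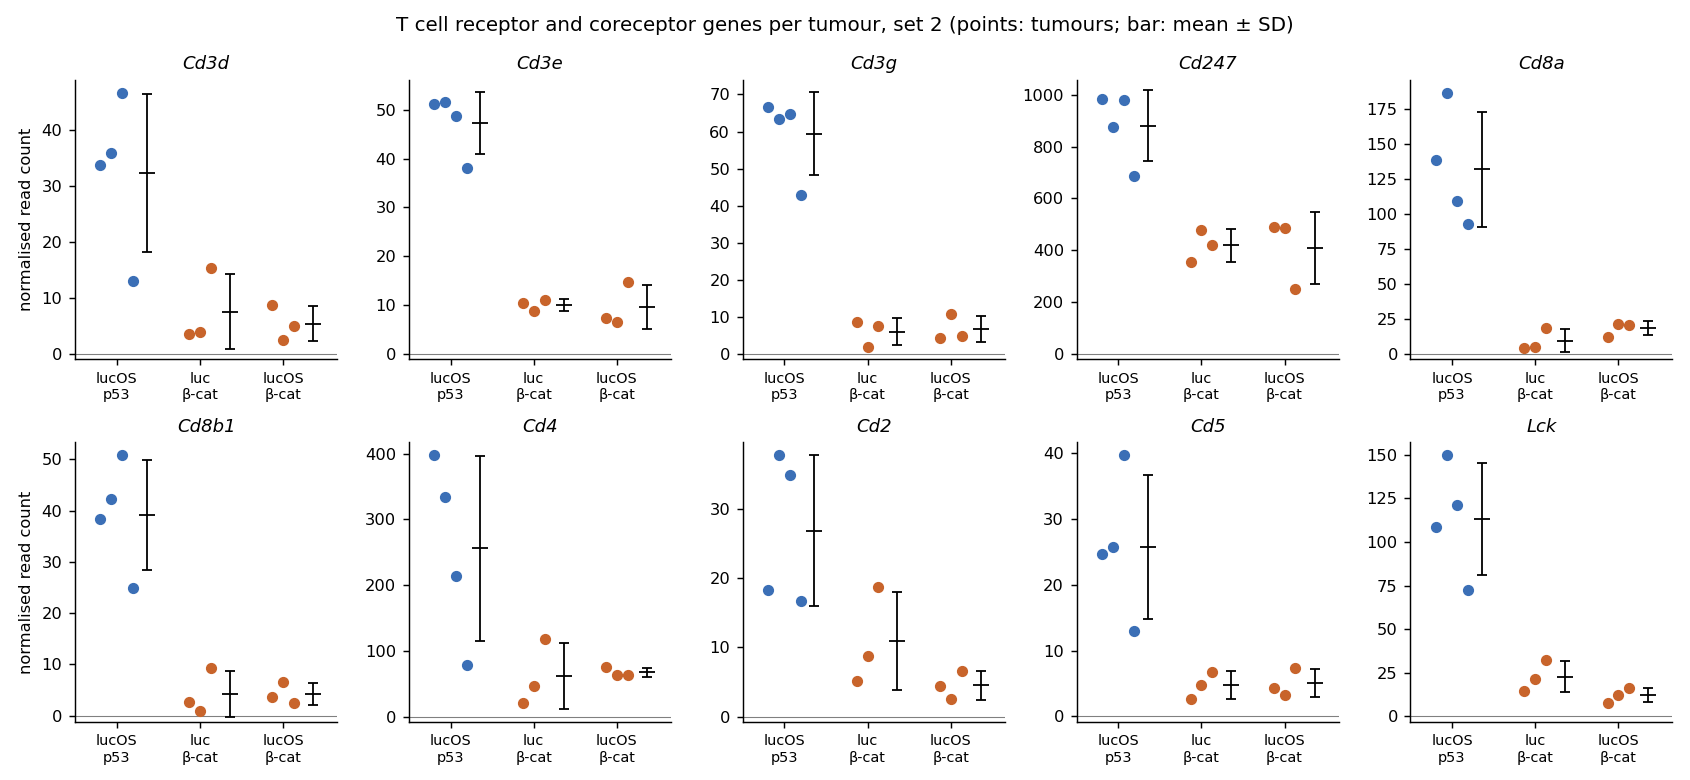
Normalised read counts (vertical axes, 1 panel per gene) in the 10 tumours of set 2 by group, with points for tumours and bars for the mean ± SD. The 4 lucOS p53 tumours stand above the 3 lucOS β-catenin tumours in every panel, and p53 tumour 4, the rightmost of its group, is the lowest of the 4 in each.

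Cd3e, the ε chain needed to assemble any CD3 pair, stood at 51.1, 51.5, 48.8 and 38.0 in lucOS p53 tumours 1 to 4 and at 7.28, 6.63 and 14.8 in lucOS β-catenin tumours 1 to 3. The 4 p53 tumours lay close together and well above the other group (47.3 ± 6.34, SD, n = 4, against 9.57 ± 4.55, n = 3), a log2 difference of -2.26 ± 0.38 (SE, limma adjusted p = 0.00726). Cd3g, the γ chain, stood at 66.6, 63.5, 64.7 and 42.8 against 4.37, 10.8 and 4.94. Again no tumour of one group reached the other, and the log2 difference was -3.04 ± 0.52 (limma adjusted p = 0.00757). Cd3d, the δ chain and the neighbour of Cd3g, stood at 33.8, 35.9, 46.8 and 13.1 against 8.73, 2.49 and 4.94. Its p53 tumour 4 came near the β-catenin tumours, and the log2 difference of -2.38 ± 0.64 had an adjusted p of 0.0334 (limma). This call was lost without p53 tumour 1, 2 or 3 (limma adjusted p = 0.0795, 0.0728 and 0.0886) or β-catenin tumour 2 or 3 (0.0876 and 0.0847), whereas Cd3e and Cd3g passed without each of the 7 tumours in turn.

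Both CD8 genes fell in the lucOS β-catenin tumours of set 2. Cd8a (chr6:71373427-71379173, plus strand), the chain present in both forms of CD8, stood at 139, 187, 109 and 92.7 in p53 and at 12.4, 21.6 and 20.6 in lucOS β-catenin tumours. The groups were far apart, at 132 ± 41.2 and 18.2 ± 5.04 (SD), with a log2 difference of -2.78 ± 0.52 (limma adjusted p = 0.00978). Cd8b1 (chr6:71322788-71337494), the β chain of conventional cytotoxic T cells, 35933 bases before Cd8a on the same strand, stood at 38.3, 42.3, 50.7 and 25.0 against 3.64, 6.63 and 2.47. Its highest β-catenin tumour was below its lowest p53 tumour, with a log2 difference of -2.97 ± 0.60 (limma adjusted p = 0.0133), and both CD8 genes passed without each tumour in turn.

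Cd4 (chr6:124864692-124888221, minus strand), the coreceptor of helper and regulatory T cells, was the exception. It stood at 398, 335, 214 and 78.4 in p53 tumours against 75.7, 63.0 and 63.4 in lucOS β-catenin tumours. P53 tumour 4 was only just above the lucOS β-catenin group, while the other p53 tumours were well above it. The log2 difference of -1.68 ± 0.65 did not pass (limma adjusted p = 0.0988). It passed without p53 tumour 4 (-2.17, adjusted p = 0.0387) and by DESeq2 (adjusted p = 0.0250).

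Lck (chr4:129548344-129573641, minus strand), the kinase that starts receptor signalling, had the largest log2 difference of the 10 in set 2. It stood at 109, 150, 121 and 72.5 in the p53 tumours and at 8.0, 12.4 and 16.5 in the lucOS β-catenin tumours. No β-catenin tumour came near a p53 tumour, and the log2 difference was -3.11 ± 0.42 (limma adjusted p = 0.00341), which passed without each tumour in turn. Cd2 (chr3:101275899-101287939, minus strand), an adhesion receptor of T and NK cells, stood at 18.3, 37.7, 34.8 and 16.6 against 4.37, 2.49 and 6.58 (log2 -2.33 ± 0.54, limma adjusted p = 0.0211). Cd5 (chr19:10717116-10739002, minus strand), which dampens receptor signals, stood at 24.6, 25.8, 39.8 and 13.1 against 4.37, 3.32 and 7.41 (log2 -2.11 ± 0.50, limma adjusted p = 0.0228). For both genes every p53 tumour was above every lucOS β-catenin tumour, with p53 tumour 4 the lowest of its group. The Cd2 call was lost without β-catenin tumour 2 (limma adjusted p = 0.0551) or p53 tumour 3 (0.0607). That of Cd5 was lost without β-catenin tumour 1 or 2 (0.0525 and 0.0586) or p53 tumour 1 or 3 (0.0573 and 0.0651).

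The luc β-catenin tumours of set 2 have no luc p53 counterpart, but their values can be read beside the others. Lck stood at 14.7, 21.3 and 32.4 there, Cd8a at 4.32, 4.85 and 18.8, and Cd3e at 10.4, 8.73 and 11.1. For Cd3e these lie within the range of the lucOS β-catenin tumours, whereas 2 of the Cd8a values lie below it and 2 of the Lck values above it, and all 9 lie below every p53 tumour. When all 6 β-catenin tumours were set against the 4 p53 tumours, 7 members (Cd3e, Cd3g, Cd247, Cd8a, Cd8b1, Cd5 and Lck) did not overlap, against 15.9% of all genes. Cd3d, Cd4 and Cd2 overlapped, because luc β-catenin tumour 3 (15.3, 118 and 18.8) exceeded p53 tumour 4, and for Cd2 also p53 tumour 1 (18.3).

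P53 tumour 4 was the lowest p53 tumour of set 2 for all 10 members and is the only p53 tumour with a JAX name. Among the tumours named JAX alone, where 1 p53 tumour is left, no member was called (limma; 4 of the 10 at an unadjusted p under 0.05, and 27 genes called in all). All 10 log2 differences stayed below 0. That of Lck was -2.52 (adjusted p = 0.359), that of Cd8a -2.33 (0.508), that of Cd3d -1.26 (0.700) and that of Cd4 -0.22 (0.945). With a single tumour on one side the spread of the other groups stands for its own. Differences between the name series and between the drivers cannot be told apart for the other p53 tumours.

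**Figure D2:**
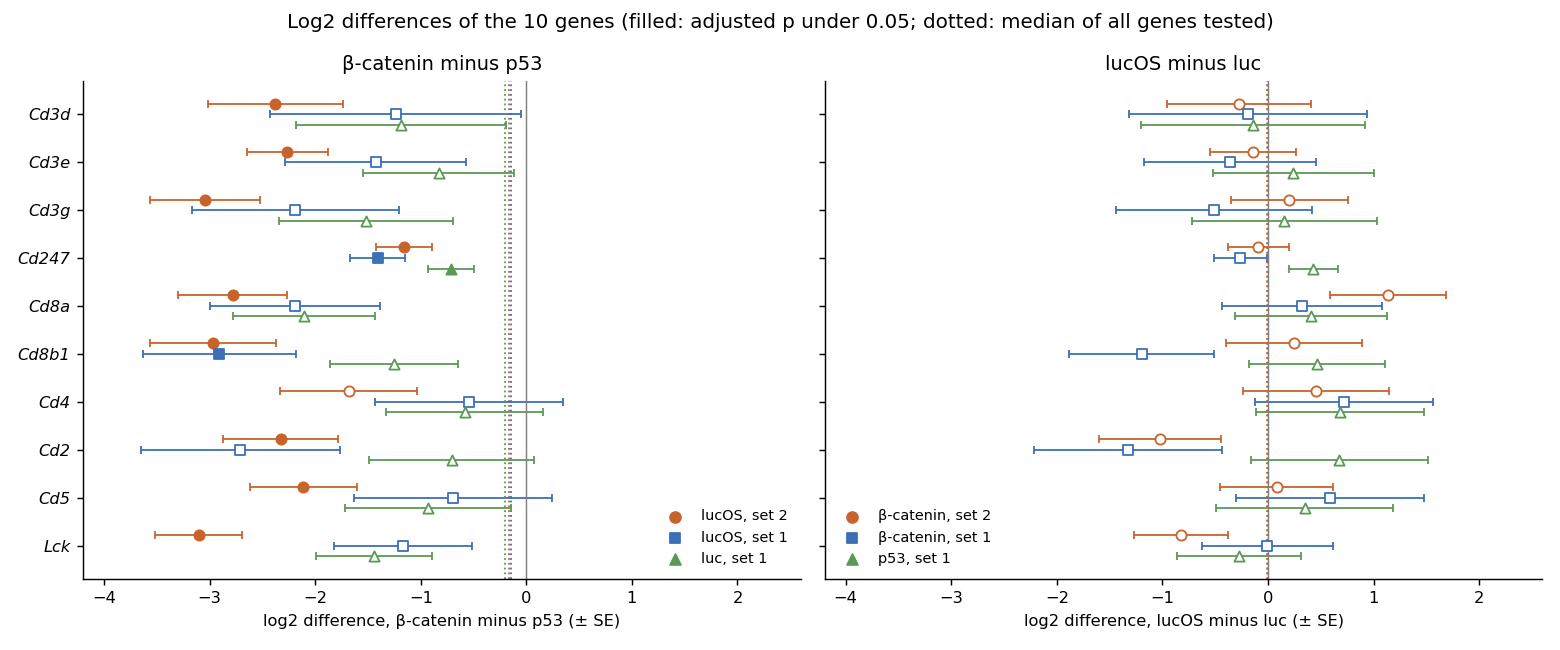
Log2 differences ± SE (horizontal axes) of the 10 genes from limma, for β-catenin minus p53 (left) and lucOS minus luc (right), with filled symbols for an adjusted p under 0.05 and dotted lines for the median of all genes tested. On the left all values lie below 0, with 9 filled circles for set 2 and 3 other filled symbols, and on the right no symbol is filled.

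In set 1, the same comparison could be made with and without the antigen, and few members passed. Among luc tumours 1 of 10 was called lower (Cd247), where 15.1% of the 16108 genes tested were called and 9.16% were called lower. Among lucOS tumours 2 of 10 were called lower (Cd247 and Cd8b1), where 4.21% of genes were called and 2.59% were called lower. All 10 log2 differences were below 0 in both comparisons, with medians of -1.06 and -1.42 against -0.20 and -0.15 over all genes. Members whose groups did not overlap numbered 4 (luc) and 6 (lucOS), as did 23.2% and 24.3% of all genes.

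Among the coreceptor genes of set 1, Cd8a and Cd8b1 did not overlap between drivers. Cd8a stood at 131, 39.8 and 24.8 in lucOS p53 tumours 1 to 3 and at 36.7, 27.2 and 55.3 in luc p53 tumours, against 12.3 and 8.72 in lucOS β-catenin and 12.5, 15.4, 2.69 and 7.39 in luc β-catenin tumours. Every p53 tumour was above every β-catenin tumour. The log2 differences were -2.11 ± 0.67 among luc tumours (limma adjusted p = 0.0557) and -2.19 ± 0.80 among lucOS tumours (0.13), and neither passed. Cd8b1 stood at 40.2, 17.9 and 9.20 in lucOS p53 and 12.2, 7.94 and 24.6 in luc p53 tumours, against 1.02 and 2.49 in lucOS β-catenin and 3.40, 7.68, 4.48 and 5.55 in luc β-catenin tumours. The drivers again did not overlap, although luc p53 tumour 2 and luc β-catenin tumour 2 nearly met. Its log2 difference was -2.91 ± 0.72 among lucOS tumours (limma adjusted p = 0.0488) and -1.25 ± 0.61 among luc tumours (0.178). The lucOS call was lost without p53 tumour 1, 2 or 3 (limma adjusted p = 0.117, 0.0608 and 0.0567) or β-catenin tumour 1 or 2 (0.177 and 0.136), and the lucOS β-catenin values rest on 1 and 2 reads.

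**Figure D3:**
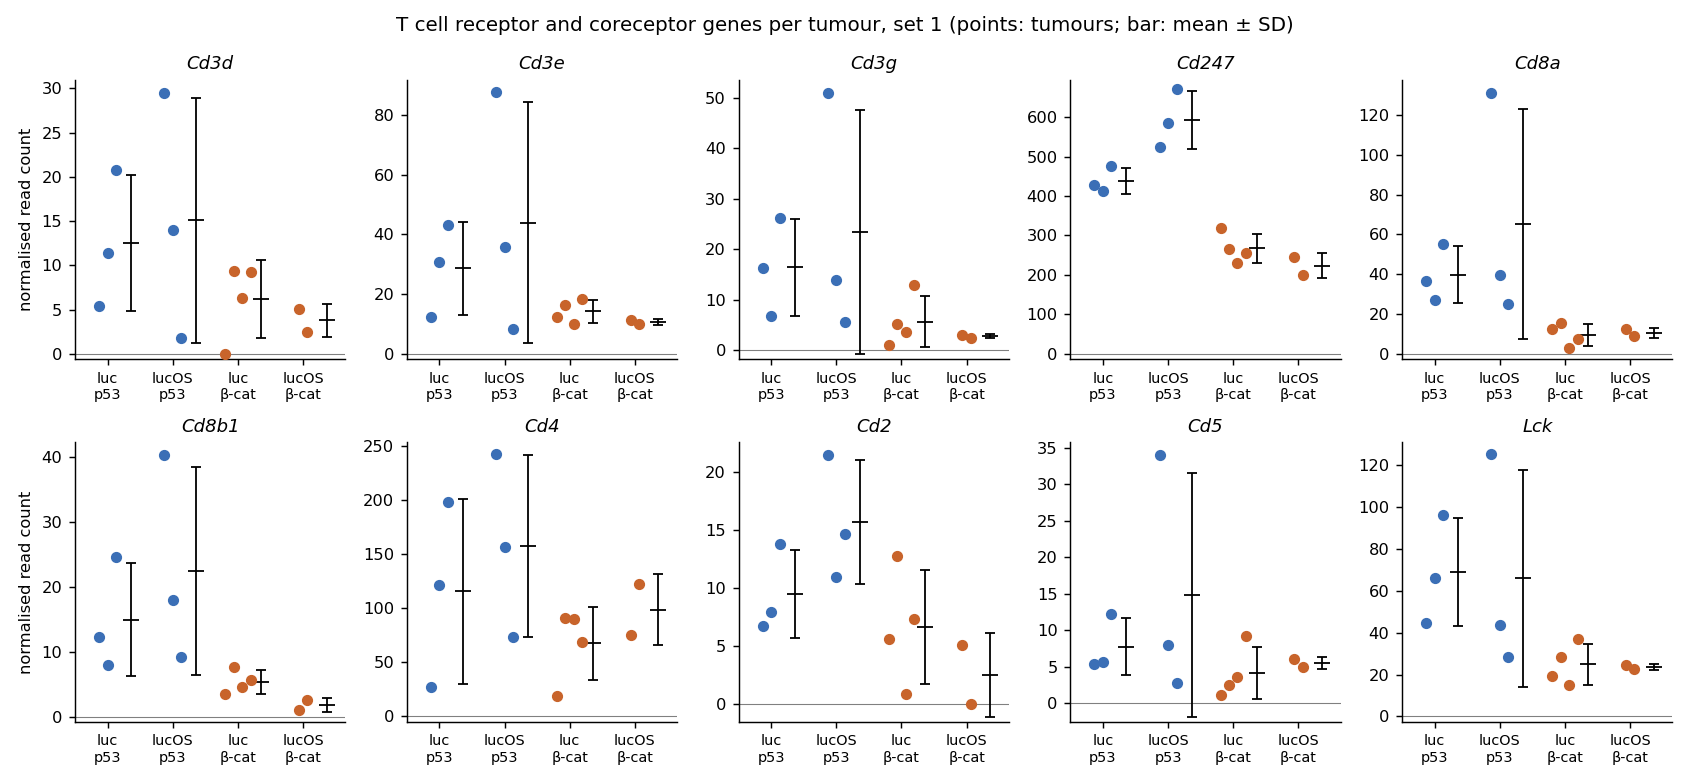
Normalised read counts (vertical axes, 1 panel per gene) in the 12 tumours of set 1 by group, with points for tumours and bars for the mean ± SD. LucOS p53 tumour 1, the leftmost of its group, is the highest of the 12 for 9 genes, and the drivers separate for Cd247, Cd8a and Cd8b1 only.

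The CD3 genes of set 1 spread widely within the p53 groups. Cd3e stood at 87.6, 35.8 and 8.28 in lucOS p53 tumours and at 12.2, 30.6 and 43.0 in luc p53 tumours, against 11.3 and 9.97 in lucOS β-catenin and 12.5, 16.2, 9.85 and 18.5 in luc β-catenin tumours. LucOS p53 tumour 3 lay below all of the β-catenin tumours, so the groups overlapped. Cd3g stood at 50.9, 13.9 and 5.52, and at 16.3, 6.81 and 26.1, against 3.07 and 2.49, and 1.13, 5.12, 3.58 and 12.9, in the same order. It overlapped among luc tumours and not among lucOS tumours. The log2 differences of Cd3e and Cd3g were -0.83 ± 0.72 and -1.52 ± 0.82 (luc) and -1.43 ± 0.85 and -2.19 ± 0.98 (lucOS), with limma adjusted p-values of 0.447, 0.223, 0.340 and 0.204. Cd3d ranged from 1.84 to 29.5 over the 6 p53 tumours and from 0 to 9.39 over the 6 β-catenin tumours.

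Lck stood at 125, 43.8 and 28.5 in lucOS p53 and at 44.8, 65.8 and 96.1 in luc p53 tumours, against 24.5 and 22.4 in lucOS β-catenin and 19.3, 28.2, 15.2 and 37.0 in luc β-catenin tumours. Within each antigen state the drivers did not overlap, but the log2 differences of -1.44 ± 0.55 (luc, limma adjusted p = 0.0944) and -1.17 ± 0.65 (lucOS, 0.305) did not pass. Cd4 stood at 242, 156 and 73.6 and at 27.2, 121 and 198 in these p53 groups, against 75.7 and 122 and 19.3, 91.3, 90.4 and 69.3. It overlapped in both comparisons and had the smallest differences of the 10, at -0.58 ± 0.74 and -0.55 ± 0.89 (limma adjusted p = 0.616 and 0.758). Cd2 ranged from 6.79 to 21.5 in p53 and from 0 to 12.8 in β-catenin tumours, and Cd5 from 2.76 to 34.0 and from 1.13 to 9.24.

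A comparison added after seeing the data averaged the driver differences of luc and lucOS tumours of set 1 with equal weight. In it 5 of the 10 were called lower by limma, where 28.3% of all genes were called and 18.6% were called lower. These were Cd8a (log2 -2.15, adjusted p = 0.0122), Cd8b1 (-2.08, 0.00907), Lck (-1.31, 0.0409), Cd3g (-1.85, 0.0499) and Cd247. Over all 12 tumours, p53 and β-catenin did not overlap for Cd247, Cd8a and Cd8b1, as for 8.96% of all genes. LucOS p53 tumour 1 was the highest of the 12 for 9 members, all but Cd247, and lucOS p53 tumour 3 was the lowest of the 6 p53 tumours for 6 (Cd3d, Cd3e, Cd3g, Cd8a, Cd5 and Lck).

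Cd247 behaved unlike the other members, and its values need their position beside them. The ζ chain gene (chr1:165788681-165877277, plus strand) runs into the gene Pou2f1 (chr1:165865154-166002678), which is read from the opposite strand and encodes the widely expressed transcription factor Oct-1. The transcript with the highest mean in set 1, NR_103716, has its exons 8 and 9 (chr1:165866655-165866898 and chr1:165869018-165871153) within Pou2f1 exons, which makes 80.5% of its 2957 bases. The transcript NM_001113391 ends before Pou2f1 and shares no exon with it. The labels do not state whether the libraries kept strand, and without strand the reads of both genes cannot be told apart in these exons.

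Cd247 stood at 524, 584 and 671 in lucOS p53, 428, 412 and 475 in luc p53, 245 and 200.6 in lucOS β-catenin and 318, 266, 231 and 256 in luc β-catenin tumours of set 1. The drivers were fully apart, with log2 differences of -0.71 ± 0.22 (luc, limma adjusted p = 0.0487) and -1.41 ± 0.26 (lucOS, 0.0214). The luc call held without luc β-catenin tumour 1 (0.0469) and was lost without luc β-catenin tumour 2, 3 or 4 (0.0905, 0.112 and 0.0982) or luc p53 tumour 1, 2 or 3 (0.112, 0.10 and 0.125). The lucOS call was lost without lucOS β-catenin tumour 1 or 2 (0.0591 and 0.116) or p53 tumour 3 (0.0596). In lucOS p53 tumour 3 Cd247 was the highest of the set, although Cd3d, Cd3e, Cd3g, Cd8a, Cd5 and Lck were at their lowest among p53 tumours there. From the reads of both transcripts, at least 93.8% to 99.1% of the NR_103716 reads of a tumour (median 95.8%) lay in exons that NM_001113391 lacks, apart from any at a few bases at the start of exon 1. Pou2f1 itself stood at 1397 to 2749 in p53 and 766 to 1157 in β-catenin tumours and differed by -0.75 ± 0.19 (luc) and -1.41 ± 0.23 (lucOS) on the log2 scale (limma adjusted p = 0.0263 and 0.0145), close to the differences of Cd247. The Cd247 value was 24.4% to 30.5% of the Pou2f1 value in every tumour of set 1.

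NM_001113391, the transcript outside Pou2f1, had 5 to 35 reads per tumour. It stood at 31.3, 4.98 and 22.1 in lucOS p53, 8.15, 13.6 and 24.6 in luc p53, 15.3 and 9.97 in lucOS β-catenin and 15.9, 9.39, 14.3 and 7.39 in luc β-catenin tumours. The drivers overlapped throughout. With this transcript in place of NR_103716, chosen after seeing the data, Cd247 was not called (log2 -0.30 in both comparisons, limma adjusted p = 0.777 and 0.853). The members called in set 1 then numbered 0 of 10 among luc and 1 of 10 among lucOS tumours. Of all 16108 genes, 1474 and 416 were called lower.

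**Figure D4:**
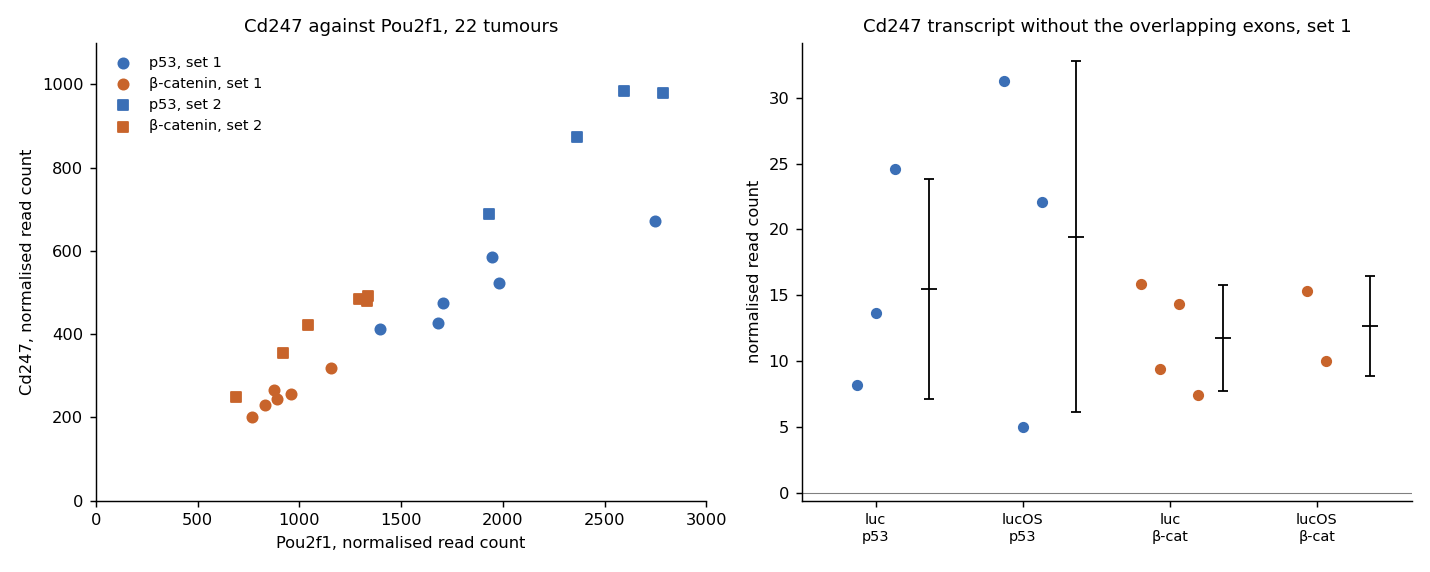
Left, Cd247 against Pou2f1 in normalised read counts for all 22 tumours, by driver (colour) and set (shape). Right, the Cd247 transcript without exons inside Pou2f1 in the 12 tumours of set 1, with points for tumours and bars for the mean ± SD. Cd247 lies between 24.4% and 30.5% of Pou2f1 in set 1 and between 35.1% and 40.4% in set 2, while the groups on the right overlap.

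In set 2 the table has 1 value per gene. Cd247 stood at 983, 874, 979 and 688 in lucOS p53, 354, 480 and 422 in luc β-catenin and 491, 484 and 249 in lucOS β-catenin tumours. It was 35.1% to 40.4% of Pou2f1 in each, and the log2 differences of Cd247 and Pou2f1 were -1.16 ± 0.27 and -1.18 ± 0.25 (limma adjusted p = 0.0207 and 0.0161). The Cd247 call was lost without p53 tumour 1 (0.0566) or 3 (0.0592). Leaving Cd247 aside, the called members are 8 of 9 in set 2, 0 of 9 among luc and 1 of 9 among lucOS tumours of set 1. Of all genes, 10.9%, 9.16% and 2.59% were called lower in these comparisons. A smaller overlap with a gene on the opposite strand was 135 bases of Cd3e (9.2%) with the antisense gene Gm48719. On the same strand, Cd247 shared 206 bases of NR_103716 (7.0%) and 198 of NM_001113391 (12.1%) with Gm16565, and Lck shared 25 bases with Mir8119. No exon overlap was found for the other 7 members.

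The model antigen was compared within each driver. Between lucOS and luc no member was called among p53 tumours of set 1, β-catenin tumours of set 1 or β-catenin tumours of set 2, and none had an unadjusted p under 0.05. Limma called 0% of all genes in each of the 3 (722, 222 and 288 genes at an unadjusted p under 0.05). EdgeR called no gene, and DESeq2 called 9, 18 and 10 genes and no member. The members' log2 differences ran from -0.28 to 0.69, from -1.32 to 0.72 and from -1.02 to 1.13, with medians of 0.38, -0.23 and -0.0044, against -0.0012, 0.000082 and -0.012 over all genes. With 2 to 4 tumours a group, differences of this size are within the spread, which does not show that the groups are alike.

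Groups did not overlap for only 1 member in each driver group of set 1. Among p53 tumours this was Cd247, higher with lucOS (524 to 671 against 412 to 475), where 4.63% of all genes were higher without overlap. Among β-catenin tumours it was Cd8b1, lower with lucOS (1.02 and 2.49 against 3.40 to 7.68), where 2.95% of genes were lower without overlap. The difference of the driver differences between lucOS and luc tumours of set 1 was tested directly as well. No member was called (0% of genes, 436 at an unadjusted p under 0.05 and none of them a member; edgeR called 0 genes and DESeq2 17, none of them members), with a median of -0.34 against 0.012 over all genes. A driver difference that passed with lucOS and not with luc, as for Cd8b1, is therefore not shown to depend on the antigen.

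Per 1000 bases of transcript, which lets levels of different genes be compared, Cd4 was the highest of the 9 members other than Cd247 in all 7 groups by median. In lucOS p53 tumours of set 2 the median levels per 1000 bases ran from Cd4 (88.3, range 25.2 to 128) through Cd3g (62.6, 41.8 to 65.1), Lck (49.6, 31.3 to 64.7), Cd8a (39.6, 29.6 to 59.6), Cd3e (34.1, 26.0 to 35.2), Cd8b1 (27.2, 16.8 to 34.2), Cd2 (23.0, 14.4 to 32.7) and Cd3d (21.5, 8.08 to 28.9) to Cd5 (12.2, 6.32 to 19.3). Each neighbour in this order overlapped the next. In the lucOS β-catenin tumours of set 2 Cd4 (20.4, 20.3 to 24.4) stood apart above all others, none of which exceeded 10.5. The transcript lengths are those of GENCODE and of 1 transcript per gene in set 1, so this order depends on them.

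The ratio of the coreceptor transcripts did not overlap between drivers in set 2, by a narrow gap that was not tested. Which cells held Cd4 was not measured, so this is not a ratio of T cell types. Cd8a relative to Cd4, both per 1000 bases, was 0.346, 0.553, 0.508 and 1.17 in the lucOS p53 tumours, 0.162, 0.339 and 0.322 in the lucOS β-catenin tumours and 0.207, 0.103 and 0.158 in the luc β-catenin tumours. The lowest p53 tumour was only just above the highest β-catenin tumour, and Cd8a rested on 5 to 26 reads in these β-catenin tumours. In set 1 the ratio was 0.223 to 1.34 in p53 and 0.0295 to 0.643 in β-catenin tumours, with overlap. Cd8b1 relative to Cd8a was 0.479 to 0.979 in set 2 p53 tumours and 0.253 to 1.27 in β-catenin tumours, with overlap, so the proportion of the CD8 chains did not separate the drivers.

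The 3 small CD3 genes were also set against Ptprc, which encodes CD45, a phosphatase on all leukocytes that frees Lck for activation. Their summed value was 11.4%, 7.78%, 9.73% and 9.34% of Ptprc in lucOS p53 tumours of set 2, and 3.67%, 3.98% and 7.11% in lucOS and 7.12%, 3.65% and 5.43% in luc β-catenin tumours. The CD3 genes were thus a smaller share of Ptprc in each β-catenin tumour, while Ptprc was lower itself (log2 -1.65, limma adjusted p = 0.00947). In set 1 Ptprc was not called between drivers (log2 0.06 and -0.54, limma adjusted p = 0.932 and 0.582), and the share was 8.76% to 12.1% in luc p53 against 3.04% to 6.14% in luc β-catenin tumours, without overlap. Among lucOS tumours of set 1 it was 15.4%, 7.29% and 3.15% against 5.41% and 1.86%, with overlap through p53 tumour 3.

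**Figure D5:**
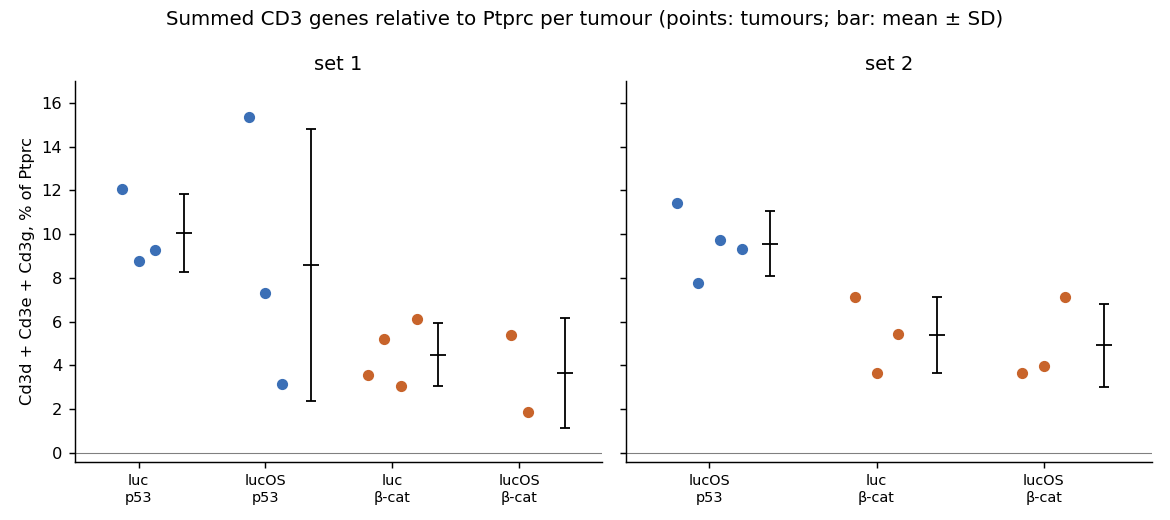
Summed value of Cd3d, Cd3e and Cd3g as a percentage of Ptprc (vertical axis) per tumour in set 1 (left) and set 2 (right), with points for tumours and bars for the mean ± SD. The p53 tumours of set 2 lie between 7.78% and 11.4% and the β-catenin tumours between 3.65% and 7.12%, whereas lucOS p53 tumours of set 1 spread from 3.15% to 15.4%.

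Genes that act next to the receptor followed the members in set 2. Of 28 genes of T cell receptor signalling, 25 were tested, and 15 were called lower and 1 higher in lucOS β-catenin tumours (limma, median log2 -1.70 against -0.16 over all genes). Of all genes tested in set 2, 17% were called and 10.9% were called lower. Among those lower were Themis (log2 -2.71), a thymocyte selection adaptor, Sh2d2a (-2.62), an adaptor that binds Lck, and Txk (-2.38), a kinase of T cells. Sla2, an adaptor that dampens receptor signals, was the 1 called higher (2485 ± 436 in p53 against 4549 ± 710, log2 0.88, limma adjusted p = 0.0104), at a level far above that of any member. In set 1, 2 of 24 were called lower among luc tumours, Cd6 (log2 -2.86), a receptor related to CD5, and Nfatc2 (-2.16), a transcription factor of activated T cells, a share near the 9.16% of all genes called lower there, with a median of -0.30 against -0.20, and 0 of 24 among lucOS tumours (limma; median -0.83 against -0.15; 3 at an unadjusted p under 0.05).

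Of 9 T cell lineage factors, 8 were tested, and they went both ways. Over all genes, 17% were called in set 2, 15.1% among luc and 4.21% among lucOS tumours of set 1. In set 2, Bcl11b (log2 -4.64), which holds T cell identity, Ikzf3 (-2.86) and Tbx21 (-2.70), the T-bet gene of type 1 and cytotoxic cells, were called lower, and Tcf7 (3.06) and Zbtb7b (0.81) higher, with a median of -1.04. Tcf7 is a T cell factor and also a known Wnt target. It stood at 95.2 ± 34.0 in p53 and 771 ± 134 in lucOS β-catenin tumours (SD), the reverse of the receptor genes. Among luc tumours of set 1, Bcl11b was called lower (log2 -3.54) and Tcf7 higher (2.63), with a median of -0.26, and none of the 8 was called among lucOS tumours (limma; median -0.14; 4 at an unadjusted p under 0.05). Of the 8 receptor constant region and pre-receptor genes, 7 were matched in neither table by symbol or synonym, so their levels are not known here. Ptcra, the pre-T α chain, was tested in set 1 only and not called within luc or lucOS (log2 -0.80 and -1.93, limma adjusted p = 0.337 and 0.109). Averaged over luc and lucOS, Ptcra was called lower (log2 -1.37, limma adjusted p = 0.0352), as were 18.6% of all genes. Between lucOS and luc, and for the difference of the driver differences, no gene of these lists was called by limma.

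In set 2 most of the NK cell and pan-leukocyte markers tested were called lower along with the members. Over all genes, 10.9% were called lower in set 2, and 9.16% and 2.59% among luc and lucOS tumours of set 1. The 12 NK cell markers summed to 362 to 461 in lucOS p53 tumours of set 2 and to 37.0 to 55.3 in lucOS and 37.8 to 122 in luc β-catenin tumours, and 8 of 9 tested were called lower. In set 1 they summed to 74.5 to 314 in p53 and 34.9 to 68.3 in β-catenin tumours, with 2 of 8 called lower among luc (Eomes and Gzma) and 0 of 8 among lucOS tumours. The defining NK receptor gene Ncr1 was among those lower in set 2 (14.5 ± 3.64 in p53 against 2.53 ± 2.26, limma adjusted p = 0.0441). Of 7 pan-leukocyte markers 5 were called lower in set 2 (sums of 4842 to 8306 in p53 against 1955 to 3970) and 0 in set 1 (0 at an unadjusted p under 0.05). The part of NK cells and of all leukocytes in the members' differences was not tested. Whether NK cells or T cells held the NK cell markers, such as Gzma, was not tested either.

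Markers of macrophages and Kupffer cells did not fall together. In set 2, Adgre1 and Csf1r were called lower and Clec4f, Vsig4 and Cd163 higher among 12, with sums of 10160 to 18983 in p53 against 6528 to 12433. In set 1, 2 of 12 were called higher among luc tumours (Marco and Cd163; sums of 2389 to 15255 in p53 against 8601 to 18239), and 0 among lucOS tumours. B cell markers had no call in any driver comparison (4 or 5 of 8 tested), and of the dendritic cell markers 1 of 9 was called lower in set 2 (Siglech) and 0 of 10 in set 1. Hepatocyte markers had 2 of 8 called higher among luc tumours of set 1 (Alb and Tat), 0 among lucOS tumours and 1 in set 2 (Tat). Endothelial markers had 2 of 6 called lower in set 2 (Pecam1 and Cdh5) and 0 in set 1, and red blood cell markers 0 of 4 throughout. These calls are limma's, and none of these lists had a call between lucOS and luc. Between drivers, limma called 17% of all genes in set 2, 15.1% among luc and 4.21% among lucOS tumours of set 1.

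The members varied together from tumour to tumour, as a description over tumours that share their tables, their groups and their depth scaling. Among the 9 other than Cd247, Pearson's r of the log2 values ran from 0.72 to 0.97 in set 2 (median 0.89, 36 pairs, 10 tumours) and from 0.18 to 0.89 in set 1 (median 0.75, 12 tumours). The 2 CD8 genes had r of 0.95 and 0.82 in sets 2 and 1, and the neighbours Cd3d and Cd3g had 0.81 and 0.83. Cd4 was the least tied to the rest in set 1 (median 0.55) and less so in set 2 (0.82). In set 1 its r with Ptprc was 0.87, against at most 0.78 with the 8 other genes. In set 2 its r with Ptprc and its highest r with those genes were both 0.90. Cd247 had a median of 0.58 with the other 9 in set 1, and its transcript NM_001113391 had 0.26.

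Of 14920 other genes, the 6 whose log2 values were most like the members' mean in both sets were Sh2d2a (r = 0.93 in set 1 and 0.97 in set 2), Ccl5 (0.92 and 0.97), Met (0.91 and 0.91), Nkg7 (0.91 and 0.95), Gimap3 (0.90 and 0.97) and Gzma (0.90 and 0.90). The mean was taken over all 10 members, Cd247 included. Ccl5 encodes a chemokine, Nkg7 and Gzma parts of cytotoxic granules, and Gimap3 a GTPase of lymphocytes. Ccl5 stood at 86.7 to 201.5 in p53 and 9.51 to 52.0 in β-catenin tumours of set 2. In set 1 it stood at 33.1 to 196.6 and 29.7 to 40.7, with overlap. Met differs from the other 5 in kind and level. It encodes the receptor of hepatocyte growth factor, a gene of hepatocytes and liver tumour cells, and stood at 4852 to 6831 against 2613 to 3356 in set 2 and 3196 to 6035 against 1847 to 3533 in set 1.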

How the data were processed

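The deposited values are a signal per gene that the authors made from read counts, and TopHat2, featureCounts, DESeq2 and the build mm10 are named, without versions, per the submitters' processing notes. Within a tumour, 1 scaling factor turned every value into whole reads (100% of values within 0.1 reads), so reads could be recovered. The 2 tables were scaled separately and tested separately. Set 1 lists RefSeq transcripts (33068), and a gene was represented by its transcript of highest mean. Set 1 had 53 symbols turned into dates, which were restored, and set 2 had 27, which were left out.

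Genes that reached 10 in 2 or more tumours of set 1, or 3 or more of set 2, were kept (16108 and 15625), all members among them. Values entered limma as log2(value + 1) (version 3.58.1, trend, R 4.3.3), with all groups of a set in 1 fit, for the driver within lucOS and luc, the antigen within each driver, and their interaction. P-values were adjusted over all kept genes (Benjamini-Hochberg). The fit was tested on simulated data. Alternatives were pseudocounts of 0.5 and 5, no filter, TMM, edgeR 4.0.16 and DESeq2 1.42.0 on the recovered reads, the compared groups alone, summed transcripts, JAX-named tumours alone and leaving out each tumour.

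The genes named are the 10 members, up to 4 called genes per T cell receptor list with the largest differences, the 6 genes most like the members' mean log2 value (smaller r of both sets, mean value of at least 10 in both), and genes of the marker lists. Sla2 and Zbtb7b lie outside this rule and were named after their values were seen. The values of 1 gene that this rule names are not reported here. The members and lists were chosen with earlier results of these data known. Gene positions and exon overlaps come from GENCODE vM21.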

Additional observations from a re-analysis of the deposited data

Results flagged for a closer look

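Among the 20 groups of 4 tumours examined (10 members in 2 groups), 1 had a tumour far from the others. Cd3g stood at 42.8 in lucOS p53 tumour 4 of set 2, below 63.5 to 66.6 in the other 3 p53 tumours, and chance alone flags about 1 in 20 groups. It is the p53 tumour with a JAX name, and it remained above every β-catenin tumour of its set (at most 10.8).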

How the results depend on the processing

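In set 2, 9 of 10 members were called lower with limma under every pseudocount, filter and scaling and with edgeR, and 10 with DESeq2. DESeq2 called 3842 of 15443 genes there, 1711 of them lower. The count was 5 to 10 when each tumour was left out, lowest without lucOS p53 tumour 3, and 0 in the JAX-named tumours alone. In set 1 the luc count of 1 was 0 with a pseudocount of 5, no filter, TMM, edgeR, the 2 groups alone or the other Cd247 transcript, 2 with DESeq2, 5 averaged over luc and lucOS, and 0 to 1 when each tumour was left out (1 only without luc β-catenin tumour 1). Among luc tumours DESeq2 called 3303 of 15941 genes, 1422 of them lower. Averaged over luc and lucOS, limma called 28.3% of all genes, and 18.6% were called lower. The lucOS count of 2 was 1 with a pseudocount of 5, no filter, TMM, edgeR, summed transcripts or the other Cd247 transcript, 3 with DESeq2, 0 with the 2 groups alone, and 0 to 1 when each tumour was left out. Among these lucOS tumours DESeq2 called 2053 of 15941 genes, 996 of them lower. The antigen comparisons and the interaction gave 0 members under every alternative run.

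All 10 driver differences stayed below 0 in each comparison under the alternatives run, except Cd4 among luc tumours without p53 tumour 3 (0.0043, from -1.41 when each was left out) and Cd5 among lucOS tumours of set 1 without p53 tumour 1 (0.17, from -1.44). The cause of these changes was not tested. Over all genes, calls split into 1475 lower and 956 higher (luc) and 417 and 261 (lucOS) in set 1, and 679 and 1229, and 203 and 326, with TMM. Called genes in all ranged from 812 to 1968 (luc) and 76 to 953 (lucOS) in set 1 and from 1148 to 2228 in set 2 when each tumour was left out, and DESeq2 called 2053 among lucOS tumours of set 1 where limma called 678. With the 2 lucOS groups of set 1 alone limma called 19, and with the JAX-named tumours 27.

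No paired analysis was possible because the labels carry no replicate numbers and tumour numbers follow accession order. The lowest members rest on few reads per tumour, and the counting error this gives was not separated from the spread between tumours.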
